A study of Mus musculus with 2 samples.

Results

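The peaks described here are narrow EHMT2 peaks that lay in repeat sequence within the bodies of shorter protein-coding genes of mouse embryonic stem cells (mESCs). A peak was included when it lay on chromosomes 1 to 19 or X, was under 1000 bp wide, and had at least 50% of its bases in lower case, the mark for repeats in the GRCm38 sequence. Its summit, the base with the most fragments, had to lie in a protein-coding gene of GENCODE vM21, with the longest gene at that base under 300 kb. Summits from 2.5 kb upstream to 0.5 kb downstream of the start of any gene were left out. Of 12556 deposited peaks, 1212 met the rule. They came from anti-HA ChIP-exo, in which exonuclease trims the precipitated DNA back to the crosslink. The EHMT2-dTAG-mcherry line (BL6/129 hybrid) carried a degron and an HA tag at the C terminus of EHMT2, was grown on feeders in FBS/LIF, and received DMSO for 24 hours, so the protein was not degraded. The 2 replicates formed 1 group and had been merged into 1 peak list, which leaves no replicate error for any value below. No control antibody or depleted sample was analysed here, so the list alone does not separate EHMT2 from other sources of signal at these repeats, and all values belong to this tagged line.

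EHMT2 (G9a) writes H3K9me1 and H3K9me2, of which H3K9me2 is a mark of repressed chromatin, and does not itself recognise DNA sequence. A large part of mouse repeat sequence derives from LINE-1 (L1) retrotransposons. A full-length L1 carries a promoter region of tandem units, called monomers, ahead of 2 open frames, of which the longer encodes a reverse transcriptase. Such elements lie within introns in both orientations. The authors' alignment kept reads with several equally good positions and placed each at 1 of them, chosen at random. A peak at a sequence with many identical copies therefore marks the repeat, and which copy in which gene was bound cannot be told apart.

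The strongest sequence group among the peaks consisted of tandem units of a little over 200 bp, and it came in a pair of forms. Single units are shown for the 2 peaks with the highest −log10 q among periods of 210 to under 220 bp, for the 2 highest among periods of 200 to under 210 bp, and for the highest of the latter with another length. C8a, Bard1 and Melk were picked for display after their values had been seen. Each unit is written in the direction that the peaks upstream of a long open frame have, and the starting point within the repeat is arbitrary. Capitals mark GCCATCTT, the reverse complement of the YY1 motif AAGATGGC, and CTTCCGG, the reverse complement of the ETS motif CCGGAAG, as well as GGGCGG and its complement CCGCCC where present.
Klra17 unit (chr6:129857193-129857404, + strand): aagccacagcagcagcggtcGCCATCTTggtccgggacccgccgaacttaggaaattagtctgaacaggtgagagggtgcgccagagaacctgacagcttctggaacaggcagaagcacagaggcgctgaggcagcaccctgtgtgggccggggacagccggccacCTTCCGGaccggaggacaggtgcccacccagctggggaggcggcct
Mrc1 unit (chr2:14288453-14288664, - strand): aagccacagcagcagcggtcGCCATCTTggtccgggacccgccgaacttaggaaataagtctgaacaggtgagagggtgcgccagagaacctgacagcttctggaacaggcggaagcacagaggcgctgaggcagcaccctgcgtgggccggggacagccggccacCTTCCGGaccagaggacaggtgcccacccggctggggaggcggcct
C8a unit (chr4:104846848-104847055, + strand): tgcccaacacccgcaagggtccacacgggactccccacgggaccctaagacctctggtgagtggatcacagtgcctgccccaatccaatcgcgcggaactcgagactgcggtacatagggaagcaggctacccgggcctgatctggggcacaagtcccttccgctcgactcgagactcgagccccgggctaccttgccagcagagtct
Bard1 unit (chr1:71085954-71086161, - strand): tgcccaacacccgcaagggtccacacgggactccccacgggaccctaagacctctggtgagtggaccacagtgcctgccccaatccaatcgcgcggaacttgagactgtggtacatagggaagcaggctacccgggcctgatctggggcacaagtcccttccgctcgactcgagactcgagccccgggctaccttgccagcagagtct
Melk unit (chr4:44357978-44358178, - strand): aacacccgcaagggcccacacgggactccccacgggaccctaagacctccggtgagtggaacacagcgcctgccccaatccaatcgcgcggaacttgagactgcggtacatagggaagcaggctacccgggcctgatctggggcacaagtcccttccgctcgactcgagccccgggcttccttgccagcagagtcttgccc
The units at Klra17 and Mrc1, 212 bp long, differed by 5 single-base edits. The 208-bp units at C8a and Bard1 differed by 3 edits. The 201-bp unit at Melk, as printed, differed from both by 23 edits. It starts at a later base of the repeat than they do, and this shift makes up part of the 23. Between the 212-bp and the 208-bp units 102 edits were needed, an identity of 51.9%, so the forms are distinct in sequence. Both forms were rich in CpG, with 12 to 14 CpG in each of the 5 units.

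The remaining sequences stand for peaks outside the tandem units. They are the top peaks by fold of 3 further sequence groups, and the leading pair of peaks whose summit occurs once in the genome. Each is 101 bp around the summit on the + strand of GRCm38, and capitals mark the central 50 bases whose copies in the genome were counted.
Ccdc85a summit (chr11:28530534-28530634, + strand): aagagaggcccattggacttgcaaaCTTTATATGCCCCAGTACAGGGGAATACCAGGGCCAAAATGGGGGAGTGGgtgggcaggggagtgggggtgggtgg
Rnf10 summit (chr5:115253632-115253732, + strand): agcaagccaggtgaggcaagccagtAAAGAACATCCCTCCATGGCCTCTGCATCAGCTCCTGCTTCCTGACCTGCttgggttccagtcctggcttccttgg
Pitpnm2 summit (chr5:124175661-124175761, + strand): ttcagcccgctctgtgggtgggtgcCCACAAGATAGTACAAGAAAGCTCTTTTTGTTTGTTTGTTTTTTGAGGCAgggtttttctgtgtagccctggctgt
Naa50 summit (chr16:44144359-44144459, + strand): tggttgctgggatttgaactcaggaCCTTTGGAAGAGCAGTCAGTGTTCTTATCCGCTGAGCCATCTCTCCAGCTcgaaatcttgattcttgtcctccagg
Plin2 summit (chr4:86650985-86651085, + strand): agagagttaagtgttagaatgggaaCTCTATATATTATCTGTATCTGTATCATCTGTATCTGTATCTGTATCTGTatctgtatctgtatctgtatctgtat
At Naa50, Plin2 and Pitpnm2 the central 50 bases occurred once in the genome, at Ccdc85a 3 times and at Rnf10 1613 times.

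Most of the 1212 peaks were small. The median fold enrichment was 5.14, with quartiles of 4.38 and 6.69 and extremes of 3.10 and 52.4. Fold is the authors' ratio of summit fragments to local background, with 1 added to both. Where the background is low the added 1 lowers the ratio, so fold partly follows the fragment count. At Naa50, with 18 fragments over a background of 0.468, the fold was 12.9. The number of fragments at the summit, recovered from the deposited fold and p-value, had a median of 8 (quartiles 6 and 12), and 441 peaks (36.4%) rested on 6 or fewer. Width had a median of 206 bp. With so few fragments a single peak is imprecise, and groups of peaks carry most of what follows. For comparison, the 1056 narrow repeat peaks in genes of 300 kb or longer had a median fold of 5.31, the 6806 outside protein-coding genes 5.23, and the 878 narrow repeat-poor peaks in genes under 300 kb 4.54. No test was run between these groups, which come from 1 list and have no replicates.

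At 1028 of the 1212 peaks (84.8%, 95% Wilson interval 82.7 to 86.7) the summit 50-mer had at least 1 further exact copy in the genome, and at 347 (28.6%) it had more than 1000 copies. These intervals cover counting error only. The share with a repeated 50-mer was 92.6% in longer genes, 93.2% outside genes and 37.1% at the repeat-poor peaks. Median copies were 274 here, 704 in longer genes and 641.5 outside genes. Peaks with more copies had more fragments, with medians of 5.5 at the 184 unique summits, 7 at 2 to 10 copies, 8 above 10 and up to 1000 copies, and 11 above 1000 copies. Random placement among copies was in use, and its part in this order was not tested.

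Alignment of the 150 bp on either side of each summit (at least 150 bp aligned at 80% identity, joined by any shared neighbour) gave 59 families of 2 or more peaks and 223 peaks with no relative in the set. The 5 largest families held 699 peaks (57.7%, interval 54.9 to 60.4). The largest held 460 peaks (38.0%) in 365 genes, and it held both tandem forms, since peaks can join through a chain of neighbours. Its median fold was 6.86 against 4.65 for the other 752 peaks, and its median fragment count was 15 against 6. It supplied 47 of the 50 highest folds and 159 of the 162 peaks with more than 20 fragments. Its summits were rich in GC, with a median of 62.2% over 201 bp against 46.8% for the rest, and held a median of 11 CpG against 2.

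**Figure D1:**
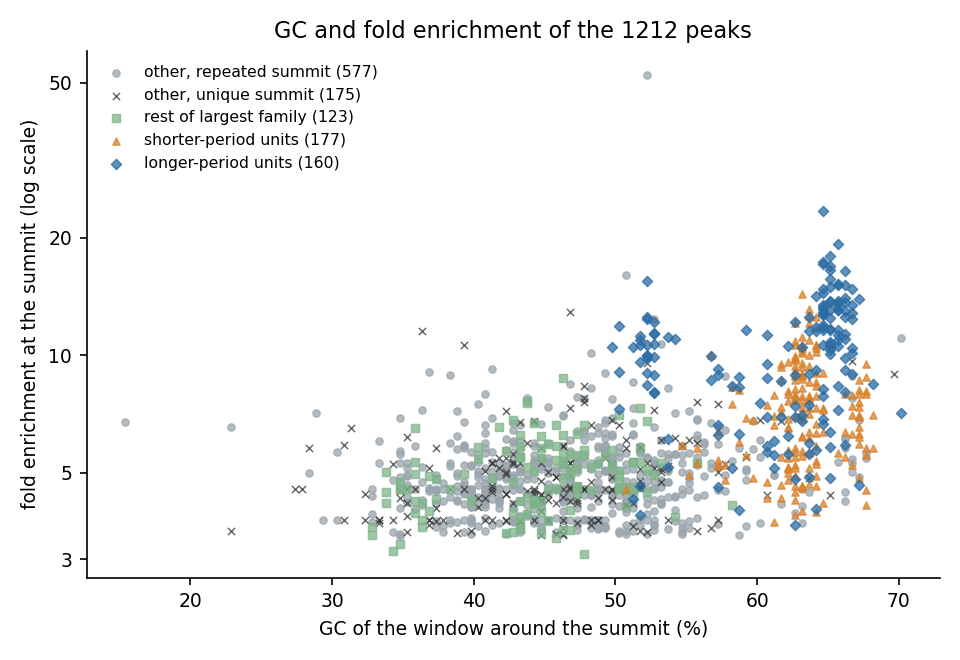
Fold enrichment (y axis, log scale) against GC of the 201 bp around the summit (x axis, %), 1 point for each of the 1212 peaks. Points of the 212-bp form (160 peaks with units of the longer period) reach the highest folds, apart from Flt1 at 52.4, and lie mostly near 65% GC with a smaller group near 52%, while the 177 peaks with shorter-period units lie near 63%.

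Peaks were assigned to the 2 forms by shared 15-mers, taken from the 99 tandem windows with a period of 210 to under 220 bp and from those with a period of 200 to under 210 bp. The forms had 594 and 635 such 15-mers and shared 6. The longer-period form held 160 peaks (13.2%), with a median fold of 10.5 (quartiles 7.37 and 12.5) and a median of 31 fragments. The shorter-period form held 177 peaks (14.6%), with a median fold of 7.07 (quartiles 5.50 and 8.66) and 15 fragments. The remaining 875 peaks had a median fold of 4.67 and 6 fragments. The same order held in the 1056 peaks of longer genes, with medians of 10.5, 6.96 and 4.84, and outside genes, with medians of 9.93, 6.84 and 4.62. Both forms made up a smaller share here (13.2% and 14.6%) than in longer genes (19.2% and 21.7%) or outside genes (17.5% and 19.01%). They are also the forms that the width limit removes most: of the 809 peaks in the list that were 1 kb or wider, 75.4% had the longer-period form and 24.0% the shorter.

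A tandem match of the summit window to itself at a lag of 150 to 250 bp, with at least 80% identity, was found at 315 peaks (25.99%, interval 23.6 to 28.5). Such a match is not particular to these peaks. It was found at 29.4% of all peaks in the list, 29.6% in longer genes, 25.6% outside genes and 26.3% at repeat-poor peaks. At 64 of the 315 peaks the window also repeated at 60 bp or less, as simple repeats do. Without such windows the share was 20.7%, against 24.7% of the list and 4.44% of the repeat-poor peaks. Of the other 251, 229 belonged to the largest family, of which 127 had a period of 200 to under 210 bp and 99 of 210 to under 220 bp. The fold was higher for the longer period, with a median of 11.6 (quartiles 8.25 and 13.5) against 7.78 (6.16 and 9.33) for the shorter. Median copies of the summit 50-mer were 854 and 763, respectively.

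**Figure D2:**
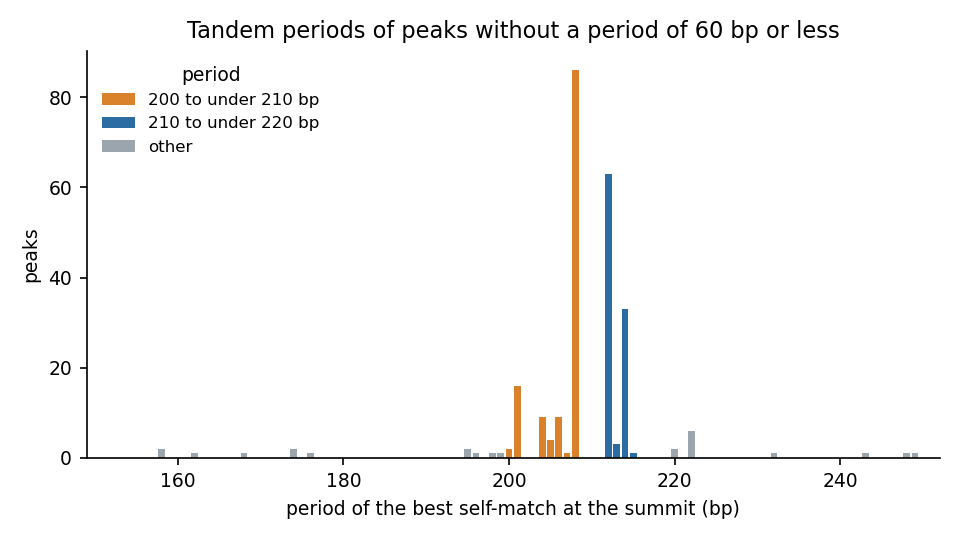
Number of peaks (y axis) at each period of the best self-match (x axis, bp), for the peaks whose window did not also repeat at 60 bp or less. Periods concentrate at 208 bp and at 212 and 214 bp, with a smaller group at 201 bp, and the colours separate periods under and over 210 bp.

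The short motifs in the units differed between the forms. YY1 and ETS proteins are transcription factors, and a YY1 site is known from the human L1 promoter. The YY1 motif (AAGATGGC, either strand) lay within 150 bp of the summit at 89 of the 99 peaks with the longer period and at 21 of the 127 with the shorter. The ETS motif (CCGGAAG) lay at 49 and 0 of them, and the GC box (GGGCGG), bound by SP1-type factors, at 79 and 22. Across the 452 peaks of the largest family that could be given a direction, the YY1 motif was found at 182, always in the reverse sense shown in capitals above, and the ETS motif at 75, also always in reverse. Among all 1212 peaks the YY1 motif was at 204 (16.8%), against 21.8% of all peaks in the list in windows of the same length. Outside the largest family it was at 2.93%. The E-box CACGTG was at 3.88% of the peaks and 3.83% of the list, and the CTCF core CCCTC at 40.2% and 44.2%. The CRE motif TGACGTCA was at 2 peaks and the NRF1 core GCATGCGC at 3. These matches describe letters only and say nothing on which factor was bound.

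Many of the peaks lay ahead of long open frames of the kind that L1 elements carry. A frame was a run of at least 1000 codons without a stop, outside annotated coding sequence, and a peak was linked to one when it lay within 3 kb upstream of the frame on the strand of the frame. This held for 303 peaks (25%, interval 22.6 to 27.5), of which 293 belonged to the largest family. Of the frames with such a peak upstream, 97.04% carried the catalytic motif of reverse transcriptases, against 78.6% of all 5502 frames. The share of linked peaks was 27.2% over all peaks in the list, 34.8% in longer genes, 29.5% outside genes and 0.114% (1 peak) at repeat-poor peaks. The summit lay a median of 1632 bp upstream of the frame (range 42 to 2914 bp), and 234 of the 303 peaks (77.2%) lay at 1200 to 2000 bp. The linked peaks had a median fold of 7.78 and 17 fragments. In the 167 peaks of the largest family without a frame the median fold was 5.59, with 11 fragments.

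**Figure D3:**
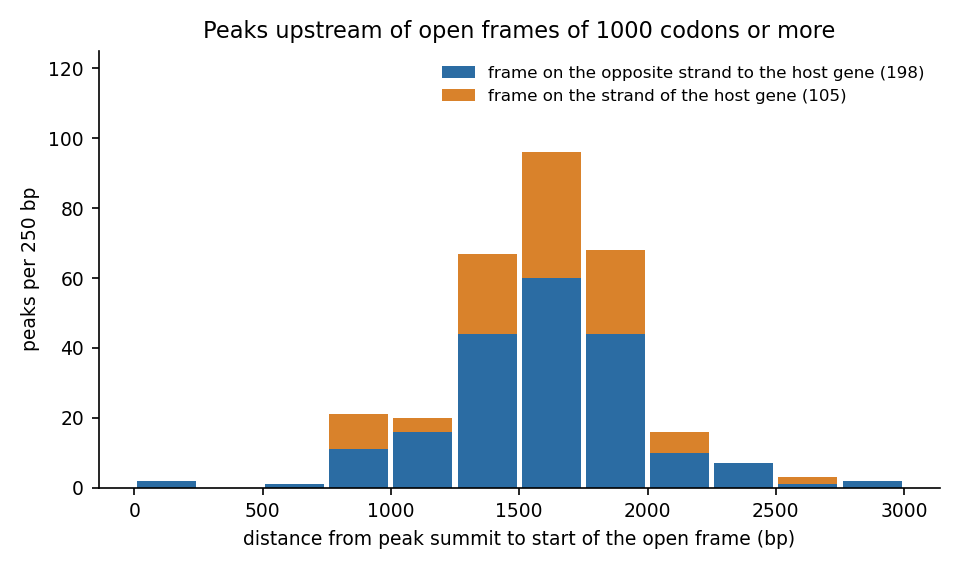
Number of peaks per 250 bp (y axis) by distance from the summit to the start of the open frame (x axis, bp), with frames on the opposite strand to the host gene in blue (198) and on its own strand in orange (105). Of the 303 peaks, 234 lie between 1200 and 2000 bp, in a mode that both strands share.

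The 2 tandem forms lay at similar distances from the frame. Linked peaks of the longer-period form with GC of 55% or more, 92 of 127, lay a median of 1747.5 bp upstream of the frame (quartiles 1550.75 and 1844.75 bp), and the 121 linked peaks of the shorter-period form at 1702 bp (1572 and 1839 bp). A compact set of 33 peaks also shared 15-mers with the longer-period form but had a GC under 55%, a median of 4 CpG and no tandem match at the summit. Of these, 29 were linked, at 1274 to 1566 bp with a median of 1327 bp, and their fold stayed high, with a median of 10.0 (quartiles 8.37 and 11.2). The 123 peaks of the largest family with neither form lay nearest to the frame, at a median of 1112 bp for the 51 that were linked, and had a lower median fold of 4.85 and a median of 2 CpG. The fold medians of these sets include peaks that had no frame. The compact set lay nearer to the frame than the shorter-period form and had the higher median fold, 10.0 against 7.07. Whether fold depends on the distance was not tested.

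Of the 303 linked peaks, 198 (65.3%, interval 59.8 to 70.5) had a frame on the opposite strand to the gene in which they lay, and 105 on the same strand. Several peaks can share a frame, and counted once each, 179 of the 270 frames with such a peak were opposite. Of all 714 such frames in genes under 300 kb, 454 (63.6%) were opposite to the gene, and in longer genes 59.4% of 705 frames were. The medians of fold were also close, 7.57 (quartiles 5.25 and 10.5) for opposite frames and 7.98 (5.79 and 10.6) for same-strand frames. A direction could also be read from shared 15-mers for 452 of the 460 peaks of the largest family. It gave the frame's strand at 293 of 293 linked peaks when each was left out of its own reference, and put 294 (65.0%) opposite to the gene. Of the 159 without a frame, 106 (66.7%) were opposite. At 302 of the 303 linked peaks the summit 50-mer was repeated in the genome, with a median of 1233 copies. The host gene and the relative strand are therefore those of the copy to which reads were written.

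The orientations differed more in the shortest genes. In genes under 100 kb, 86 of 108 linked peaks (79.6%, interval 71.1 to 86.1) were opposite to the gene, whereas 65.2% of the 296 frames there were. In genes of 100 to 200 kb 57.4% of 108 peaks were opposite, and in genes of 200 to 300 kb 57.5% of 87. Counted by frame, 76 of 193 opposite frames in genes under 100 kb (39.4%, interval 32.8 to 46.4) had a peak of this kind upstream, against 20 of 103 same-strand frames (19.4%, interval 12.9 to 28.1). With peaks of any width and class counted, the shares were 47.2% and 32.04%. In genes of 100 to 200 kb the order was the other way, 37.2% for opposite and 45.6% for same-strand frames, and in those of 200 to 300 kb the shares were 42.9% and 44.8%. Frames of 1 gene or of 1 subfamily are not independent, and the 100 kb limit was one of the alternatives tried, so the difference is given as counts without a test. The intervals take each peak or frame as independent and its position among copies as known, so they are no test of the difference either.

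Over all frames in genes under 300 kb, 270 of 714 (37.8%) had a peak of the rule upstream, and 51.3% had any peak, of which 89 frames had a peak of 1 kb or wider. In longer genes 62.4% of 705 frames had any peak upstream, and outside genes 55.9% of 4083. The list held 6.65 peaks of the rule per Mb of repeat-masked sequence in genes under 300 kb, 11.7 narrow repeat peaks per Mb in longer genes and 12.05 outside genes. Frames were also sparsest in genes under 300 kb, with 3.92 per Mb against 7.83 in longer genes and 7.23 outside genes. Peaks without a frame numbered 4.99, 7.65 and 8.50 per Mb in these places. On the X chromosome the density in genes under 300 kb was 7.91 per Mb against 6.58 on the autosomes. The X held 72 of the peaks, of which 44 (61.1%) belonged to the largest family and 22 (30.6%) to the longer-period form, compared with 36.5% and 12.1% of the 1140 autosomal peaks. The number of X chromosomes in the line was not taken into account.

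The other families differed in sequence and were weaker. The second held 111 peaks in 110 genes with a median fold of 4.54, a median GC of 45.3% and no linked frame. Its top peak, at Ccdc85a, had a fold of 6.81 and 8 fragments. The third held 67 peaks with a median fold of 4.53, led by Rnf10, which encodes a RING finger protein, at 10.7 with 18 fragments. The fourth held 33 peaks with a median GC of 36.8%. Of these, 11 had the summit inside an open frame of at least 500 codons, against 59 of all 1212 peaks. The top peak of this family, at Megf10, a phagocytic receptor gene, had a fold of 6.22. The fifth held 28 peaks, of which 15 had a unique summit, with a top fold of 9.54 at Pitpnm2, a phosphatidylinositol transfer gene. The seventh was made mostly of simple repeats: 17 of its 22 windows repeated at 60 bp or less and 19 had no CpG in 201 bp. Simple repeats of this kind accounted for 100 of the 1212 peaks (8.25%), of which 70 had no CpG. The share was 6.62% over all peaks in the list, 4.83% in longer genes and 2.19% outside genes. At the repeat-poor peaks in genes of the same length it was 28.7%.

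Among the 10 peaks with the highest −log10 q, Flt1, a gene for a VEGF receptor, stood apart with a fold of 52.4 and 302 fragments, at a summit 50-mer with 6 copies in the genome. The 9 that followed Flt1 all belonged to the longer-period form. Klra17, a lectin-like receptor of the Ly49 type, had a fold of 23.5 and 81 fragments. Mrc1, the macrophage mannose receptor, had 19.3 and 82 fragments, and the peak lay 1747 bp upstream of a frame opposite to the gene. Dzip3, a ubiquitin ligase gene, had 17.9. Gria2, an AMPA receptor subunit, had 17.4, and its frame was likewise opposite to the gene. Rnls (renalase) had 17.1, A1cf, a cofactor of APOBEC1 RNA editing, 16.6, and Tbck 16.5. Fancl, a ligase of the Fanconi anaemia pathway, had 15.7, and Adgrg4, an adhesion receptor gene on the X, 15.3. The 50-mers at these 9 summits had 281 to 1995 copies in the genome, so that the named gene is the position to which reads were written and not a location that the reads establish. The same holds for Flt1, since its 6 copies count exact matches on the assembled chromosomes only.

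At 184 peaks the summit 50-mer was unique, which gives those 50 bases a position of their own. The rest of such a peak can still be repeated. At Xpo7 and Vmn2r55 the tandem self-identity of the summit window was 99.0% and 94.5%. The 184 peaks were weak, with a median fold of 4.54 and 5.5 fragments, and 127 rested on 6 or fewer fragments. Naa50, an N-terminal acetyltransferase gene, led with a fold of 12.9 and 18 fragments, followed by Plin2, which encodes a lipid droplet coat protein, at 11.6 and also 18 fragments. Vmn2r55, a vomeronasal receptor gene, had 22 fragments and a fold of 9.49, and Xpo7, a nuclear transport receptor gene, 17 fragments and 7.95. These belonged to the largest family, with periods of 208 and 206 bp, and the Xpo7 peak lay 1874 bp upstream of a frame opposite to the gene. Further unique summits among the top 10 were Usp24 (a deubiquitinase, fold 10.6), Cnst (8.97), Fam107b (8.33) and Rrp15 (7.33), with 10 to 14 fragments each. Of the 184, 1 was linked to a long frame and 9 belonged to the largest family. Uniqueness was judged in the C57BL/6J reference, and the 129 part of the genome was not examined.

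The 1212 peaks touched 1007 of 21188 protein-coding genes under 300 kb, so that 4.75% of eligible genes held at least 1. Of these genes 826 held 1 peak, 139 held 2, 33 held 3 and 9 held 4 or more. Joining peaks within 10 kb of each other left 1105 loci, since 200 peaks (16.5%) had another of the set that near. The share of genes with a peak was higher in every longer class, with 0.195% under 10 kb, 2.08% at 10 to 30 kb, 7.70% at 30 to 100 kb, 19.5% at 100 to 200 kb and 39.7% at 200 to 300 kb. Longer genes hold more repeat sequence, and the number of peaks per Mb of masked gene sequence was higher too, at 2.39, 4.74, 5.81, 6.71 and 9.18 in the same order. These densities do not share the basis of the 6.65 per Mb given earlier and do not compare with it directly.

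**Figure D4:**
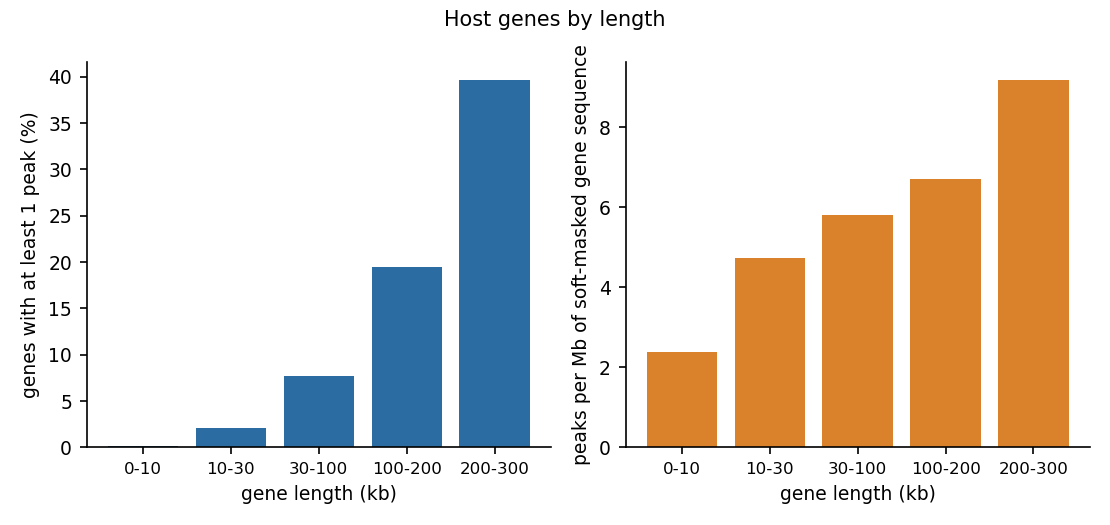
Share of eligible genes with at least 1 peak (left, %) and peaks per Mb of soft-masked gene sequence (right), each by gene length class (x axis, kb). The share runs from 0.195% to 39.7% and the density from 2.39 to 9.18 per Mb, and both are higher in each longer class.

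Nearly all peaks were intronic. Introns held 1191 of them (98.3%) and exons 21, of which 1, in Calcoco2, an autophagy receptor gene, was coding. Olfactory receptor genes accounted for 7 of the exonic peaks, with 2 at Olfr624 and the highest fold, 6.68, at Olfr648, genes named after their values were seen. The median intron with a peak was 17195 bp long, the median distance to the nearest exon was 4103.5 bp, and 216 peaks (17.8%) lay within 1 kb of an exon. The first intron held 208 (17.2%). When each gene was divided from start to end into 5 equal segments, these held 13.9%, 24.7%, 24.6%, 19.97% and 16.9% of the peaks, while masked sequence outside promoters was spread as 18.5%, 21.9%, 21.5%, 20.5% and 17.6%. The first segment had the widest gap between the shares.

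The gene with the most peaks was Camk4, a calcium-dependent kinase gene of 256.3 kb on chromosome 18, with 8. Of these, 6 were linked to long frames, 76.98 to 109.3 kb from the start of the gene and all on its strand, with folds of 3.86 to 10.7. Its other peaks had folds of 3.79 each. Gbe1, the glycogen branching enzyme, held 5, with folds of 4.12 to 7.78. Adam22, a synaptic member of the ADAM family, held 4 at 4.32 to 8.78, of which 3 belonged to the largest family. All 3 ran opposite to the gene. Wdr17 held 4 at 3.79 to 8.32, Sytl5, a synaptotagmin-like gene on the X, 4 at 4.61 to 5.72, Cngb3, a cone photoreceptor channel subunit, 4 at 4.34 to 7.53, and Ppp2r3a, a regulatory subunit of phosphatase 2A, 4 at 4.19 to 5.79. In 2 genes the 4 peaks lay in a single short stretch. At Filip1 they lay within 2.48 kb, all in the largest family, with folds of 3.97 to 5.14 on 17 to 22 fragments each, and at Btbd11 within 4.23 kb, all in 1 other family, with folds of 3.64 to 5.07 on 12 to 17 fragments. Gbp8, an interferon-inducible GTPase gene, held 3 of the strong kind, with folds of 7.37, 13.0 and 15.2.

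**Figure D5:**
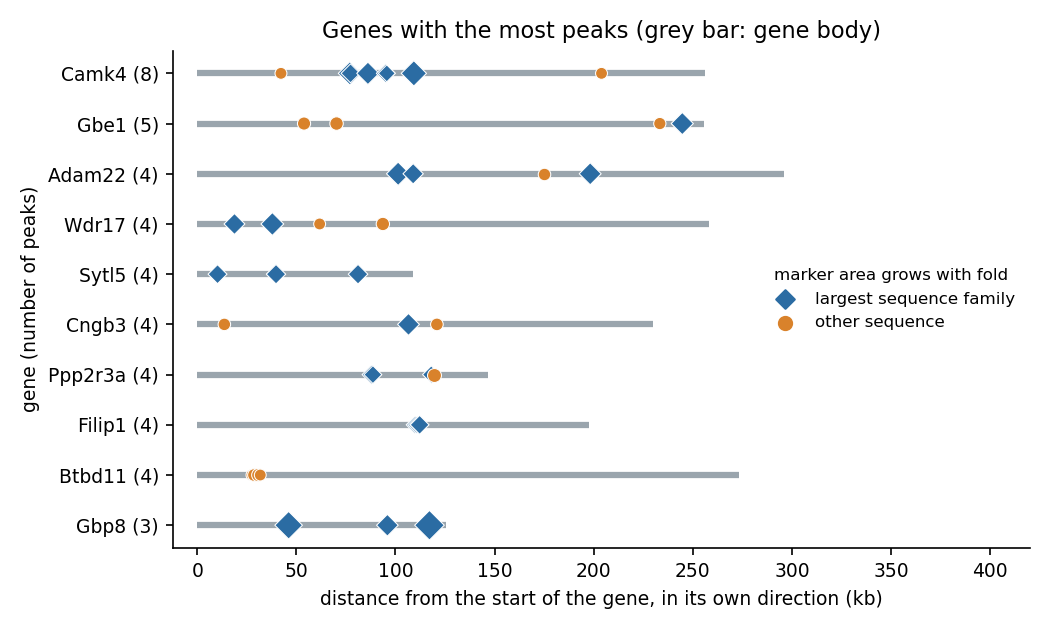
Position of every peak (points, area growing with fold) along the 10 genes with the most peaks (grey bars), as distance from the start of the gene in kb. Blue diamonds mark the largest sequence family and orange circles other sequence: the 4 peaks of Filip1 and of Btbd11 overlap in 1 place each, while those of Gbe1 and Adam22 are spread over 191 and 96.9 kb.

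Gene groups were set beside the background of 4.75% of eligible genes, and their lengths are given because this share differed between the length classes, from 0.195% to 39.7%. Peaks per masked Mb are given as well, and over all eligible genes these came to 6.25. This value does not share the basis of the 6.65 per Mb given earlier for genes under 300 kb, and the lists compare only with the 6.25. None of 27 genes of H3K9 methylation and HP1, 9 of DNA methylation, 24 of pluripotency, 46 of the 2-cell stage, 105 keratins or 82 ribosomal proteins held a peak. For keratins, ribosomal proteins and the 2-cell group the median gene was under 10 kb long (1.65, 3.27 and 5.94 kb), for pluripotency 13.9 kb, and for the H3K9 and DNA methylation genes 41.3 and 52.7 kb. ADAM and ADAMTS proteases had peaks in 10 of 50 genes (20%, median length 40.7 kb) and 16.6 peaks per masked Mb. Besides Adam22, these included Adamts20 with a fold of 12.1 and Adamts19 with 11.8. Cilia genes had them in 11 of 58 (18.97%, 57.8 kb), among them the dynein heavy chain Dnah5 with 2 peaks at 3.46 and 4.00, and ABC transporters in 6 of 49 (12.2%, 63.7 kb), with Abcc12 at 5.18 and 7.78.

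Meiosis and germline genes had peaks in 4 of 37 (10.8%, 43.6 kb), including the synaptonemal complex gene Sycp1 at 3.58 and 4.67 and Tex11 at 12.5 with 49 fragments. Transmitter receptors had them in 7 of 66 (10.6%, 29.1 kb), with the serotonin receptor Htr1f at 11.6 and 15.5 and Gabrg1, a GABA receptor subunit, with 3 peaks at 5.32 to 6.27. The list of lectin-like receptors had them in 5 of 52 (9.62%, 14.1 kb), led by Klra17. The 5 include Clec16a (fold 4.14), an endosomal protein gene and not a receptor of this kind. Potassium, sodium and calcium channel genes had 9 of 113 (7.96%, 32.3 kb), including 2 peaks each at Kcnk10 and Scn2a, and cytochrome P450 genes 7 of 94 (7.45%, 21.2 kb), of which 4 were of the Cyp2c cluster. Solute carriers had 23 of 367 (6.27%, 28.8 kb), with 3 peaks at Slc4a10 and a fold of up to 14.8 at the glutamate transporter Slc1a6. In the glucuronosyl- and sulfotransferases 9 of 43 genes were counted, but 6 of them are overlapping Ugt1a records that share 1 peak of 4 fragments, which leaves 3 Sult genes with their own. The proteasome list had 4 of 50 genes (8%), with the germline subunit Psma8 at a fold of 10.6. Serine proteases (3 of 56 genes, 5.36%), serpins (3 of 61, 4.92%) and collagens (2 of 41, 4.88%) were near the background of 4.75% and slightly above it. Below the background were TRIM proteins (3 of 68, 4.41%), zinc-finger proteins (14 of 415, 3.37%), cadherins (2 of 91, 2.198%), splicing factors (1 of 47, 2.13%) and olfactory and vomeronasal receptors (24 of 1420, 1.69%).

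Per masked Mb the order of the lists was another. Besides the ADAM list, the density was 14.3 in lectin-like receptors with Clec16a included, 12.1 in the proteasome list and 11.5 in serine proteases, on 4 or 5 peaks each. The 13.8 in glucuronosyl- and sulfotransferases counts the peak of the overlapping Ugt1a records once for every record. The density was 9.34 in cilia genes, 8.80 in transmitter receptors, 8.51 in serpins, 8.46 in ABC transporters, 7.91 in meiosis and germline genes and 7.60 in cytochrome P450 genes. Near the 6.25 of all genes were solute carriers at 6.79, potassium, sodium and calcium channel genes at 6.70, olfactory and vomeronasal receptors at 6.28 and TRIM proteins at 5.60. Lower values were 4.57 in zinc-finger proteins, 3.78 in splicing factors, 2.07 in collagens (median length 107 kb) and 0.870 in cadherins (56.8 kb). Without replicates or a test, these shares and densities describe the list of peaks and single out no group.

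The limits of the rule cut through a continuous range. At the width limit, Lmbr1 (999 bp, fold 10.1) was inside and a further peak at Htr1f (1006 bp, fold 13.3) outside. Of 101 peaks that met all but the width limit, 87 were linked to a long frame. At the repeat limit, Ash1l (51.0% masked, fold 3.77) was inside and Nmnat2 (49.8%, fold 4.30) outside. At the gene length limit, Akap13 (299076 bp, fold 5.79) was inside and Pam (300533 bp, fold 4.50) outside.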

How the data were processed

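Anti-HA ChIP-exo was done on 2 replicates of mESCs. Per the labels' processing notes and the methods, the authors aligned reads to mm10 with STAR 2.7.10 (multi-mapping reads written to 1 random best position), removed duplicates (Picard 2.26.0), merged the replicates and called peaks with MACS2 2.2.6 without a control at q below 0.05. The deposited list gives positions, fold enrichment (a ratio), −log10 p, −log10 q and a score (10 times −log10 q). The authors' score was not needed further. Whether the file analysed here is the full list that the study counted was not established. Library totals are not given in the sources used here. The fragment number at each summit was solved from fold and p by the Poisson formula of MACS2, with a single solution for 99.96% of peaks (otherwise the highest background was taken).

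Here, sequence and masking came from GRCm38.p6 and genes from GENCODE vM21. Copies of the summit 50-mer were counted exactly on both strands. Families were joined from minimap2 2.31 alignments. Frames, tandem matches and motifs were searched with scripts in Python 3.11.15, NumPy 2.4.6 and Numba 0.67.0, and each step was tested on simulated data. Shares carry Wilson intervals (SciPy 1.17.1). Named were 10 peaks by −log10 q, 10 more with a unique summit by the same order, the 10 genes with most peaks (ties by summed fold), the top fold of the 5 largest families, those nearest each limit, and 2 to 4 genes per list. The peaks, lists and rules were chosen with earlier results of these data known. Some items that these rules name are not reported here.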

Additional observations from a re-analysis of the deposited data

How the results depend on the processing

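No paired analysis was possible because only 1 merged list of a single group exists, and for the same reason no replicate could be left out. Of 51 recalculations 22 stayed within the interval of the reported value (or, for counts, within 1.5 times) and 29 moved. The recalculations used other sets of peaks or other definitions. Nearly all values are single counts, medians or shares, which have no direction that could turn, and the reasons for the moves were not tested. Using q of 0.001 or lower left 788 peaks, a median fold of 5.89, repeated 50-mers at 89.5%, frames at 34.8%, tandem periods at 35.4% and 63.7% in the 5 largest families. At q of 0.01 the median fold was 5.31, frames 28.0% and tandem periods 28.8%. With at least 90% masked bases the values were 93.7% repeated, 29.0% with frames and 66.9% in the families. With host genes under 100 kb there were 588 peaks in 2.79% of genes, 81.6% repeated, 18.4% with frames, 79.6% of these opposite, 23.1% tandem and 46.3% in the families. With a width under 500 bp the median fold was 4.81, with 81.6% repeated, 13.5% with frames, 15.3% tandem and 47.8% in the families. Frames of at least 500 codons were upstream of 37.2% of peaks, 100-mers were repeated at 69.2%, a self-identity of 70% gave 31.3% tandem, and alignments over 250 bp put 48.3% in the families. Leaving out windows that also repeat at 1 to 60 bp, chosen after seeing the data, gave 20.7% tandem. The opposite share stayed between 64.5% and 66.2% in the other alternatives, which include the 15-mer strand, also added after seeing the data.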
